A study of Mus musculus with 9 samples.

Results

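The genes described here are 36 mouse genes of fatty acid oxidation and ketone body metabolism, chosen by gene symbol from a table of 34745 genes in liver RNA. All 36 were found in the table, and all 36 were among the 13701 genes with enough counts to be tested. They comprise the regulator Ppara, 3 acyl-CoA synthetases, 4 genes of the carnitine shuttle, 11 of the mitochondrial oxidation steps, 3 of electron transfer, 9 peroxisomal genes, 2 omega-hydroxylases, 2 acyl-CoA thioesterases and 1 enzyme of ketone bodies.

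The study asked what sulodexide, a glycosaminoglycan drug, does in livers made fibrotic by thioacetamide (TAA), a hepatotoxin that liver enzymes activate. In the sulodexide group, C57BL/6 mice drank water with 400 mg/L TAA for 16 weeks and received sulodexide daily for 4 weeks from the start of week 13. The vehicle group had the same TAA exposure and received vehicle on the same schedule. The control group is labelled only as control, and whether it received vehicle is not stated. Each group had 3 libraries made from mRNA of whole liver. Nothing in the labels ties a library to a mouse of its own, and p-values therefore speak only of the scatter among these libraries, part of which may be technical. Age and sex are not stated.

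In the liver, long-chain fatty acids are joined to coenzyme A by acyl-CoA synthetases, carried into mitochondria as carnitine esters, and shortened by rounds of dehydrogenation, hydration, oxidation and thiolysis. Peroxisomes run a parallel pathway for very long chain and dicarboxylic acids, the microsomal Cyp4a enzymes supply dicarboxylic acids by omega-hydroxylation, and during fasting the acetyl-CoA from mitochondria is turned into ketone bodies for other tissues. The nuclear receptor PPAR alpha, encoded by Ppara, activates genes of each of these steps in mouse liver when fatty acids reach it.

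Library totals ran from 13803697 to 16655951 counts. TMM factors, which correct library totals for composition, were 1.01 to 1.04 in sulodexide, 1.08 to 1.19 in vehicle and 0.821 to 0.919 in control libraries. Transcripts encoded by mitochondrial DNA held 6.24% to 7.85% of counts in sulodexide, 4.79% to 6.52% in vehicle and 9.89% to 10.9% in control libraries. Levels below are CPM, read counts scaled to a common library size after TMM correction, differences are log2 changes from the edgeR model with their standard errors (SE), and a gene is said to have risen or fallen at a Benjamini-Hochberg adjusted p below 0.05 over all 13701 genes. Levels of different genes are compared only in FPKM, which divides by transcript length. Whether groups overlap in CPM was read with TMM factors only, and some separations depend on them. Because whole tissue was sequenced, fewer hepatocytes and less RNA per hepatocyte cannot be told apart in any of the differences.

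Within a group, some libraries stood apart for these genes. Control library 3 had the lowest of the 3 control values for 22 of the 36 genes, or 61.1%, against 31.6% of all tested genes. Vehicle library 2 was the highest of its group for 25 members, or 69.4%, against 35.2% of all tested genes, and vehicle library 1 was the lowest for 23. Sulodexide library 1 was the highest of its group for 21 members and sulodexide library 2 the lowest for 22, or 58.3% and 61.1%, against 33% and 32.2% of all tested genes. Among 31 other tested PPAR alpha target genes the same libraries stood out, with control library 3 lowest for 18, vehicle library 2 highest for 23, sulodexide library 1 highest for 20 and sulodexide library 2 lowest for 20.

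In TAA livers with vehicle, 12 of the 36 genes had fallen and 5 had risen relative to control. Across all tested genes 20.4% fell and 23.1% rose, so the share of members that fell, 33.3%, lay above the background and the share that rose, 13.9%, below it. The members and the gene lists below were chosen with earlier results of these data known, so such shares are descriptions and not independent tests. The members that fell were Acsl1, Cpt1a, Slc25a20, Acadl, Acadm, Acads, Etfa, Etfdh, Hsd17b4, Acaa1a, Acaa1b and Decr2, and those that rose were Acsl5, Crat, Abcd2, Ehhadh and Acot2. The median log2 change was -0.24 over the members and 0.01 over all tested genes, and -0.16 over the members without vehicle library 1.

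This split depended on the scaling. With library totals in place of TMM factors the median of all tested genes was 0.41, 42% of them rose and 8.44% fell, and 8 members rose and 5 fell. Relative to the median of all genes the members stood at -0.25 with TMM factors and at -0.26 with library totals. Acsl1, Cpt1a, Etfa, Acaa1a and Decr2 fell under both scalings, and Acsl5, Crat, Abcd2, Ehhadh and Acot2 rose under both. The falls of Slc25a20, Acadl, Acadm, Acads, Etfdh, Hsd17b4 and Acaa1b passed the test with TMM factors and not with library totals, where Acsl3, Hadha and Hadh rose.

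**Figure D1:**
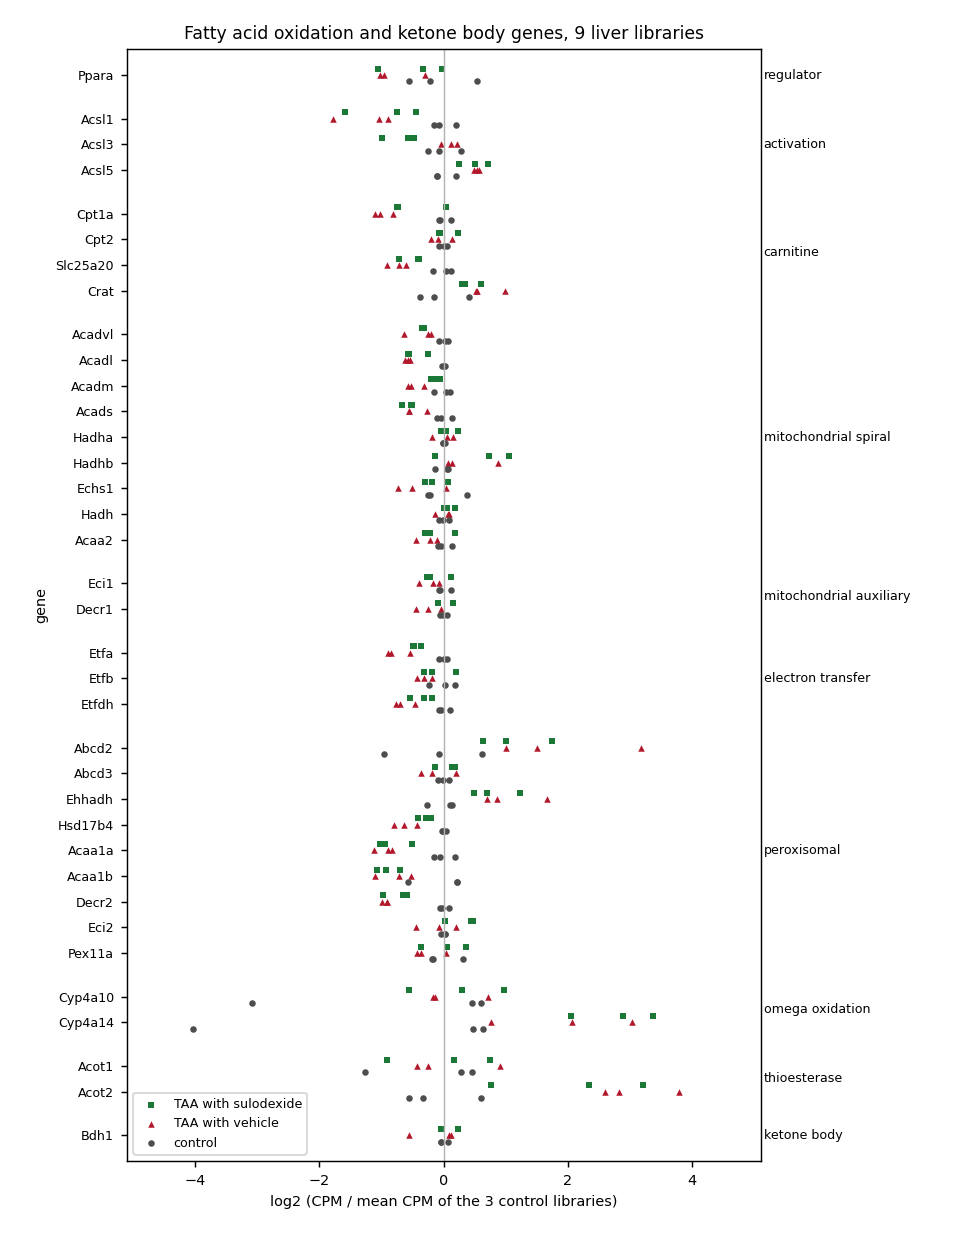
Level of each of the 36 genes in each of the 9 libraries, as log2 of CPM over the mean CPM of the 3 control libraries (horizontal axis), grouped by role; squares are sulodexide, triangles vehicle and circles control libraries. Most mitochondrial genes lie within 1 log2 unit of control in every library, whereas Cyp4a10, Cyp4a14, Acot1 and Acot2 spread widely and control library 3 lies far below the other controls for both Cyp4a genes.

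The regulator Ppara (chr15:85734983-85802819, GRCm38) had 80.9, 65.7 and 39.7 CPM in sulodexide libraries, 40.5, 66.8 and 42.5 in vehicle libraries and 120.2, 71.1 and 55.8 in control libraries. All 3 groups overlapped, and the difference of vehicle from control did not pass the test (log2 -0.72 ± 0.34 SE, edgeR adjusted p = 0.12); without control library 1, the highest, it was log2 -0.34. Sulodexide against vehicle gave log2 0.32 ± 0.34 SE, edgeR adjusted p = 0.664.

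Acyl-CoA synthetases moved in opposite directions. Acsl1 (chr8:46471041-46536051), the main long-chain synthetase of liver, had 406, 329 and 184 CPM in sulodexide libraries, 161, 299 and 270.3 in vehicle libraries and 632, 499 and 527 in control libraries. Every vehicle library lay below every control library, a 2.27-fold lower level (log2 -1.18 ± 0.30 SE, edgeR adjusted p = 0.00923), while vehicle and sulodexide overlapped (log2 0.33, edgeR adjusted p = 0.575). Acsl5 (chr19:55253369-55296627), a synthetase of mitochondria and endoplasmic reticulum, had 582, 422 and 504 CPM in sulodexide libraries, 528, 516 and 498 in vehicle libraries and 328, 407 and 330.0 in control libraries. It rose in vehicle livers (log2 0.53 ± 0.14 SE, edgeR adjusted p = 0.0111) and in sulodexide livers relative to control (log2 0.50 ± 0.14 SE, edgeR adjusted p = 0.0279), with both TAA groups above all controls.

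Acsl3 (chr1:78657825-78707743), a synthetase tied to lipid droplets, had 17.1, 18.3 and 12.8 CPM in sulodexide libraries, 27.8, 29.6 and 24.8 in vehicle libraries and 21.4, 24.3 and 30.9 in control libraries. Sulodexide libraries were below all vehicle and all control libraries, which overlapped each other. The level was 1.70-fold lower with sulodexide than with vehicle (log2 -0.77 ± 0.17 SE, edgeR adjusted p = 0.0302) and 1.58-fold lower than in control (log2 -0.66 ± 0.17 SE, edgeR adjusted p = 0.0191). The call against vehicle was lost when any 1 of the 6 libraries was left out, with adjusted p between 0.0582 and 0.0971. Acsl3 shares 244 exonic bases on the same strand with Utp14b, so part of its counts can come from that gene.

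In the carnitine shuttle the entry step fell. Cpt1a (chr19:3323301-3385732), the outer-membrane carnitine palmitoyltransferase that limits entry of long chains into mitochondria, had 512, 295 and 297 CPM in sulodexide libraries, 244, 284 and 229.9 in vehicle libraries and 541, 472 and 477 in control libraries. Vehicle libraries were all below the controls, a 1.97-fold lower level (log2 -0.98 ± 0.20 SE, edgeR adjusted p = 0.00288). All 3 sulodexide libraries were above all vehicle libraries, but the difference did not pass the test over all genes (log2 0.54 ± 0.20 SE, edgeR adjusted p = 0.157); without sulodexide library 1, the highest, the log2 change was 0.23.

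Slc25a20, the carnitine-acylcarnitine carrier of the inner membrane, had 112, 90.2 and 113 CPM in sulodexide libraries, 78.9, 90.8 and 97.8 in vehicle libraries and 161, 152 and 133 in control libraries. It fell in vehicle livers (log2 -0.74 ± 0.14 SE, edgeR adjusted p = 0.0014) and was below control in sulodexide livers too (log2 -0.50 ± 0.14 SE, edgeR adjusted p = 0.0217). Crat, which moves acetyl groups between carnitine and coenzyme A, had 45.1, 37.9 and 36.7 CPM in sulodexide libraries, 43.2, 58.9 and 42.8 in vehicle libraries and 39.6, 26.8 and 22.9 in control libraries. It rose in vehicle livers (log2 0.70 ± 0.21 SE, edgeR adjusted p = 0.0177), a call lost when vehicle library 2, control library 2 or control library 3 was left out (adjusted p = 0.0674, 0.0625 and 0.0665). Cpt2, the inner-membrane transferase, was not called in any comparison (log2 -0.05, edgeR adjusted p = 0.796 for vehicle against control).

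The acyl-CoA dehydrogenases open each round of the spiral and differ in the chain length they prefer. Transcripts of the long-, medium- and short-chain enzymes fell in vehicle livers with TMM factors. With library totals none of these falls was called (log2 -0.18, -0.07 and -0.06, edgeR adjusted p = 0.223, 0.663 and 0.714). Acadl had 184, 147 and 148 CPM in sulodexide libraries, 141, 147 and 150.0 in vehicle libraries and 215, 220.3 and 219 in control libraries. The TAA groups overlapped each other and lay below control (log2 -0.58 ± 0.12 SE, edgeR adjusted p = 0.00239 for vehicle and log2 -0.45 ± 0.12 SE, edgeR adjusted p = 0.018 for sulodexide). Acads had 105, 94.6 and 106 CPM in sulodexide libraries, 102, 124 and 102 in vehicle libraries and 139.7, 164 and 146 in control libraries, lower than control in vehicle (log2 -0.46 ± 0.12 SE, edgeR adjusted p = 0.011) and in sulodexide livers (log2 -0.56 ± 0.12 SE, edgeR adjusted p = 0.00822). Without control library 2 the first call was lost (adjusted p = 0.0559).

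Acadm (chr3:153922357-153944632), the medium-chain enzyme, had 266, 240.0 and 256 CPM in sulodexide libraries, 186, 223 and 191 in vehicle libraries and 284, 298 and 247 in control libraries. With TMM factors the fall in vehicle livers (log2 -0.47 ± 0.12 SE, edgeR adjusted p = 0.00963) left every vehicle library below every control and every sulodexide library. This order depends on those factors. Sulodexide livers overlapped control (log2 -0.12, edgeR adjusted p = 0.496), and their difference from vehicle did not pass the test (log2 0.34 ± 0.12 SE, edgeR adjusted p = 0.141). Acadvl, the very-long-chain enzyme, was close to the threshold in vehicle livers (log2 -0.35 ± 0.13 SE, edgeR adjusted p = 0.051); 1151 of its exonic bases overlap Dvl2 on the opposite strand.

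Later steps of the mitochondrial spiral were not called. Hadha and Hadhb encode the subunits of the trifunctional protein, Echs1 the short-chain hydratase, Hadh the short-chain hydroxyacyl-CoA dehydrogenase and Acaa2 the medium-chain thiolase. Their log2 changes in vehicle against control were 0.01, 0.41, -0.37, 0.01 and -0.25, with edgeR adjusted p between 0.207 and 0.954. With library totals Hadha and Hadh rose, and without vehicle library 1 Echs1 fell (log2 -0.62, adjusted p = 0.0394). Without vehicle library 2 the value of Hadhb was 0.10. The auxiliary enzymes for unsaturated chains, the isomerase Eci1 (-0.21) and the reductase Decr1 (-0.24), were not called either. For Hadhb, 57.5% of its 50-base stretches also occur in transcripts of Gm13910 or Gm9108, so its counts are uncertain.

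Of the 3 electron transfer genes, which hand electrons from the dehydrogenases to ubiquinone, 2 fell in vehicle livers. Etfa, the alpha subunit of the electron transfer flavoprotein, had 177, 180.1 and 193 CPM in sulodexide libraries, 139, 171 and 134 in vehicle libraries and 238, 251 and 259.8 in control libraries. With TMM factors the groups did not overlap: vehicle was below sulodexide and sulodexide below control. The fall was log2 -0.75 ± 0.12 SE, edgeR adjusted p = 0.000632 in vehicle and log2 -0.44 ± 0.12 SE, edgeR adjusted p = 0.0231 in sulodexide livers, and the difference between the TAA groups did not pass the test (log2 0.31 ± 0.12 SE, edgeR adjusted p = 0.178). Etfdh, the ubiquinone oxidoreductase, had 205, 186 and 159.7 CPM in sulodexide libraries, 143, 168 and 137 in vehicle libraries and 249, 225 and 221 in control libraries. It fell in vehicle livers (log2 -0.63 ± 0.13 SE, edgeR adjusted p = 0.00276) and was not called in sulodexide livers (log2 -0.34, edgeR adjusted p = 0.0857). Etfb, the beta subunit, was not called (log2 -0.31, edgeR adjusted p = 0.136), and 57.7% of its 50-base stretches are shared with Gm45233.

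Taken over the 18 genes of the carnitine shuttle, mitochondrial spiral, auxiliary enzymes and electron transfer, 7 fell and 1 rose in vehicle livers, with a median log2 change of -0.33; with library totals Cpt1a and Etfa fell and Crat, Hadha and Hadh rose. Of all tested genes 20.4% fell and 23.1% rose, and with library totals 8.44% fell and 42% rose. Their summed level was 3877 to 4416 CPM in sulodexide, 3412 to 4005 in vehicle and 4669.6 to 4946 in control libraries. With TMM factors the vehicle libraries were all below the controls in this sum, and so were the sulodexide libraries. This order depends on the TMM factors, which were lower in control than in TAA libraries.

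**Figure D2:**
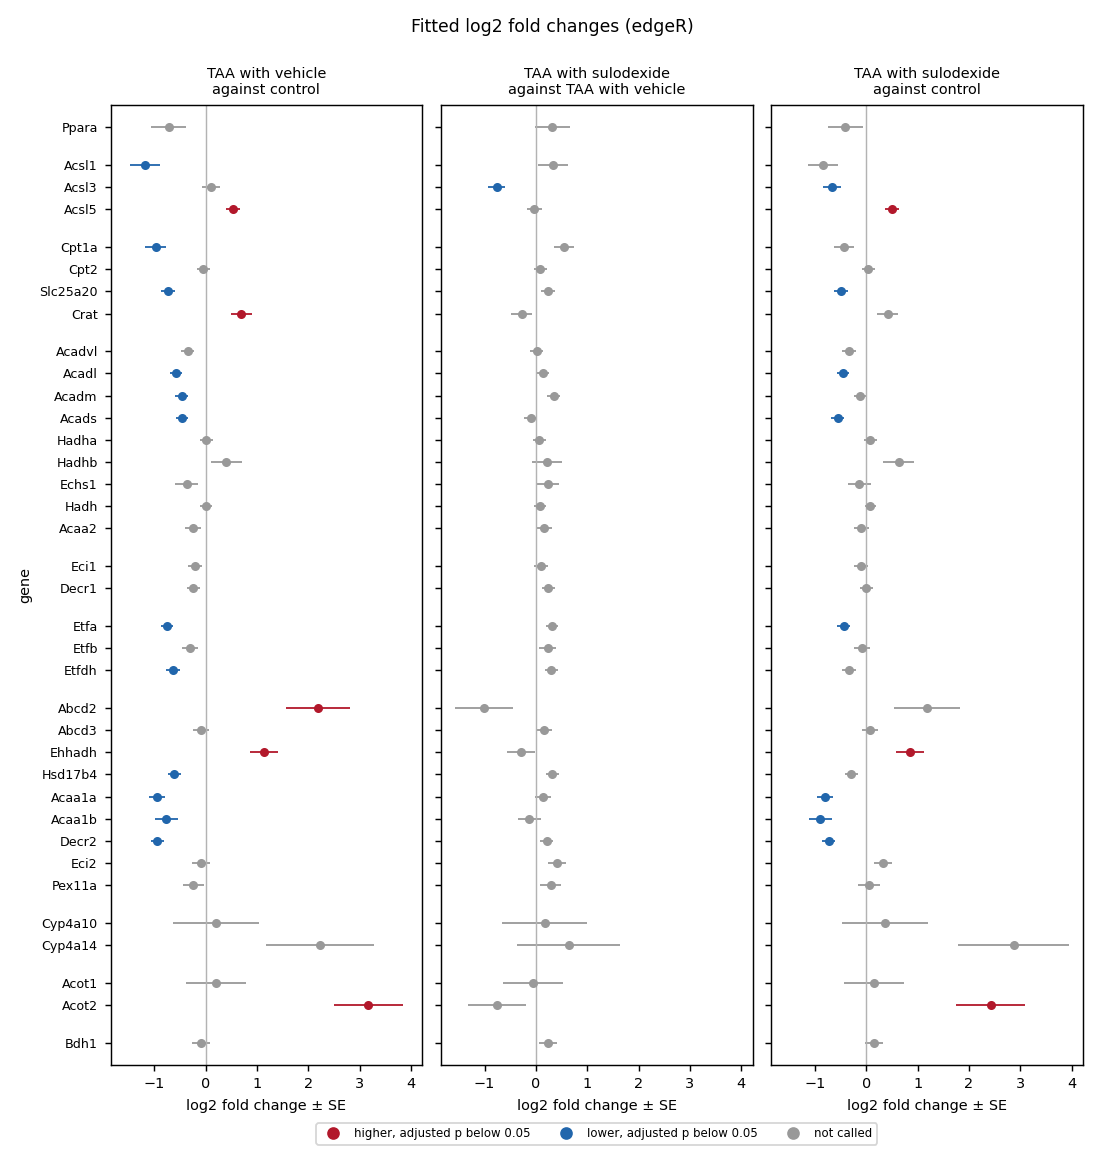
Fitted log2 change with its standard error (horizontal axis) of each of the 36 genes in vehicle against control, sulodexide against vehicle and sulodexide against control; red marks genes that rose, blue genes that fell and grey genes not called at an edgeR adjusted p below 0.05. In vehicle against control 12 genes are blue and 5 red, and in sulodexide against vehicle 1 gene, Acsl3, is blue and none is red.

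Peroxisomal genes moved both ways. Of 9 genes, 4 fell and 2 rose in vehicle livers, with a median log2 change of -0.24; with library totals 2 fell, Acaa1a and Decr2, and the same 2 rose. Of all tested genes 20.4% fell and 23.1% rose, and 8.44% and 42% with library totals, so the share of peroxisomal members that rose was not above the background. Ehhadh (chr16:21761287-21787844), the bifunctional enzyme that handles dicarboxylic acids and a known PPAR alpha target, had 581, 347 and 401 CPM in sulodexide libraries, 399, 786 and 447 in vehicle libraries and 270.4, 266 and 204 in control libraries. All TAA libraries were above all controls, a 2.20-fold higher level in vehicle livers (log2 1.14 ± 0.27 SE, edgeR adjusted p = 0.00744) and a 1.79-fold higher level in sulodexide livers (log2 0.84 ± 0.27 SE, edgeR adjusted p = 0.0495). The second call was lost in 5 of the 6 fits that left out 1 library, all but the fit without sulodexide library 2, and was weakest without sulodexide library 1 (log2 0.60, adjusted p = 0.153). It was also lost with no filter on low counts (adjusted p = 0.0826).

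Hsd17b4, the bifunctional enzyme for straight and branched very long chains, had 458, 431 and 393 CPM in sulodexide libraries, 302, 391 and 338 in vehicle libraries and 538, 521 and 516 in control libraries. In contrast to Ehhadh it fell in vehicle livers (log2 -0.61 ± 0.13 SE, edgeR adjusted p = 0.00266), with no overlap between any of the 3 groups under TMM scaling. With library totals the fall was not called (log2 -0.22, edgeR adjusted p = 0.17). Sulodexide stood between vehicle (log2 0.31 ± 0.13 SE, edgeR adjusted p = 0.188) and control (log2 -0.30, edgeR adjusted p = 0.11), and neither difference passed the test.

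Decr2 (chr17:26081211-26090329), the peroxisomal dienoyl-CoA reductase, had 146, 117 and 153 CPM in sulodexide libraries, 123, 122 and 115 in vehicle libraries and 227, 244 and 220.2 in control libraries. This was the smallest p of all 36 genes in vehicle against control (log2 -0.94 ± 0.12 SE, edgeR adjusted p = 0.000175), and both TAA groups were below every control (log2 -0.73 ± 0.12 SE, edgeR adjusted p = 0.00204 for sulodexide). The thiolase gene Acaa1a (chr9:119339676-119350299) had 111, 118 and 158 CPM in sulodexide libraries, 104, 122 and 127 in vehicle libraries and 218, 258 and 202 in control libraries. It fell 1.92-fold in vehicle livers (log2 -0.94 ± 0.16 SE, edgeR adjusted p = 0.000813) and 1.75-fold in sulodexide livers (log2 -0.81 ± 0.16 SE, edgeR adjusted p = 0.00472).

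Its neighbour and near copy Acaa1b (chr9:119148023-119157093) had 366, 329.8 and 428 CPM in sulodexide libraries, 324, 422 and 485 in vehicle libraries and 812, 812 and 468 in control libraries. Vehicle library 3 was above control library 3, which was far below the other controls, and the fall (log2 -0.77 ± 0.22 SE, edgeR adjusted p = 0.0165) was lost when vehicle library 1 or either of control libraries 1 and 2 was left out (adjusted p = 0.0614, 0.0641 and 0.0657). The coding sequences of both thiolases are 96.5% identical, with an unbroken identical run of 327 bases, so the division of counts between them is uncertain.

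Abcd2, an importer of very long chain acyl-CoA, was the least abundant member and had 4.26, 1.97 and 2.57 CPM in sulodexide libraries, 11.6, 3.62 and 2.55 in vehicle libraries and 1.96, 1.21 and 0.653 in control libraries. Vehicle library 1 was several times above the other vehicle libraries. The rise in vehicle livers (log2 2.20 ± 0.62 SE, edgeR adjusted p = 0.0168) was lost without that library (log2 1.26, adjusted p = 0.0574) and without control library 2 or 3 (adjusted p = 0.0535 and 0.0611). The more abundant importer Abcd3 (-0.10), the isomerase Eci2 (-0.09) and the peroxisome division factor Pex11a (-0.24) were not called, with edgeR adjusted p between 0.385 and 0.702.

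The omega-hydroxylases and thioesterases varied widely between libraries of a group. Cyp4a10 (chr4:115518264-115533649) had 348, 121 and 217 CPM in sulodexide libraries, 161, 291 and 158 in vehicle libraries and 268, 243 and 20.8 in control libraries. Control library 3 was the lowest of all 9 libraries, the groups overlapped, and no comparison passed the test (log2 0.20 ± 0.83 SE, edgeR adjusted p = 0.868 for vehicle against control, log2 0.17 ± 0.83 SE, edgeR adjusted p = 0.942 for sulodexide against vehicle); without control library 3 the first was log2 -0.32. Cyp4a14 (chr4:115486200-115496142) had 652, 259 and 465 CPM in sulodexide libraries, 107, 513 and 264 in vehicle libraries and 87.5, 97.2 and 3.84 in control libraries. All TAA libraries were above all control libraries, but the changes did not pass the test (log2 2.23 ± 1.05 SE, edgeR adjusted p = 0.129 for vehicle, log2 2.87 ± 1.08 SE, edgeR adjusted p = 0.0998 for sulodexide). Without control library 3 they were log2 1.68 (adjusted p = 0.0934) and 2.31 (adjusted p = 0.0682). Limma on FPKM called both (adjusted p = 0.0285 for vehicle and 0.0233 for sulodexide), and DESeq2 called sulodexide against control (log2 2.87, adjusted p = 0.0268).

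Acot1 and Acot2 lie side by side on chromosome 12 and encode a cytosolic and a mitochondrial thioesterase that release free fatty acids from acyl-CoA. Acot2 (chr12:83987861-83993873) had 17.7, 3.25 and 9.74 CPM in sulodexide libraries, 11.6, 26.5 and 13.6 in vehicle libraries and 1.53, 2.93 and 1.31 in control libraries. All TAA libraries were above all controls, a 9.01-fold higher level in vehicle livers (log2 3.17 ± 0.66 SE, edgeR adjusted p = 0.00547) and a 5.35-fold higher level in sulodexide livers (log2 2.42 ± 0.67 SE, edgeR adjusted p = 0.0326); the second call was lost in 5 of the 6 fits without 1 library, all but that without sulodexide library 2 (adjusted p between 0.0529 and 0.103), and with no filter on low counts (0.0843). Acot1 (chr12:84009502-84017670) had 42.1, 13.3 and 28.4 CPM in sulodexide libraries, 21.1, 47.4 and 18.7 in vehicle libraries and 34.4, 30.6 and 10.5 in control libraries. Its groups overlapped and it was not called (log2 0.20 ± 0.59 SE, edgeR adjusted p = 0.806 for vehicle against control); the log2 change was -0.34 without vehicle library 2 and -0.16 without control library 3.

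The coding sequences of Acot2 and Acot1 are 95.6% identical over 1236 aligned bases, and reads lying wholly within their longest identical run, 273 bases, cannot be assigned to either gene; the treatment of such reads by the authors' counting is not stated. That run, from the coding strand of Acot2 on chromosome 12, is shown to let a reader judge the overlap:
Acot2 run identical in Acot1: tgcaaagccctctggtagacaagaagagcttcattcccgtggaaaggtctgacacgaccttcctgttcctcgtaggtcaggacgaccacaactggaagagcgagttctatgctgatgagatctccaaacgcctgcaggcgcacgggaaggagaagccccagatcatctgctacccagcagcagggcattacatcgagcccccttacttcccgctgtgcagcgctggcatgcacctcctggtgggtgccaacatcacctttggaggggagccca

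Upstream of their start sites the copies are unlike. Over 250 bases the windows are 51.3% identical, against a median of 52.6% over 406 pairs of member windows, with a range of 39.6% to 64.4%. Both windows are shown because one copy was called and the other was not, a difference that was not itself tested (RefSeq start sites, GRCm38, plus strand, chr12:83987611-83987860 for Acot2 and chr12:84009252-84009501 for Acot1, CpG dinucleotides in capitals):
Acot2 upstream: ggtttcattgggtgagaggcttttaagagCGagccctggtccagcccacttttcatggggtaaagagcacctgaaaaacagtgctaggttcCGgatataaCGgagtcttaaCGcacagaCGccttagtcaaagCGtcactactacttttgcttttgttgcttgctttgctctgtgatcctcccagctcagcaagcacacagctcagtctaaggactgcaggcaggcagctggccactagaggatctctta
Acot1 upstream: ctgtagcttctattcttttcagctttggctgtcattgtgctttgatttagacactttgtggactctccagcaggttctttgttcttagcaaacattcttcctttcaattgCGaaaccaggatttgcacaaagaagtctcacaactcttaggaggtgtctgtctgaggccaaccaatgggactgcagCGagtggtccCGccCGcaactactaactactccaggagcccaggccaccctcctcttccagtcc
The Acot2 window holds 6 CpG and the Acot1 window 4, against a median of 12 over the 29 members with a matched window and 6 over 27025 gene symbols.

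**Figure D3:**
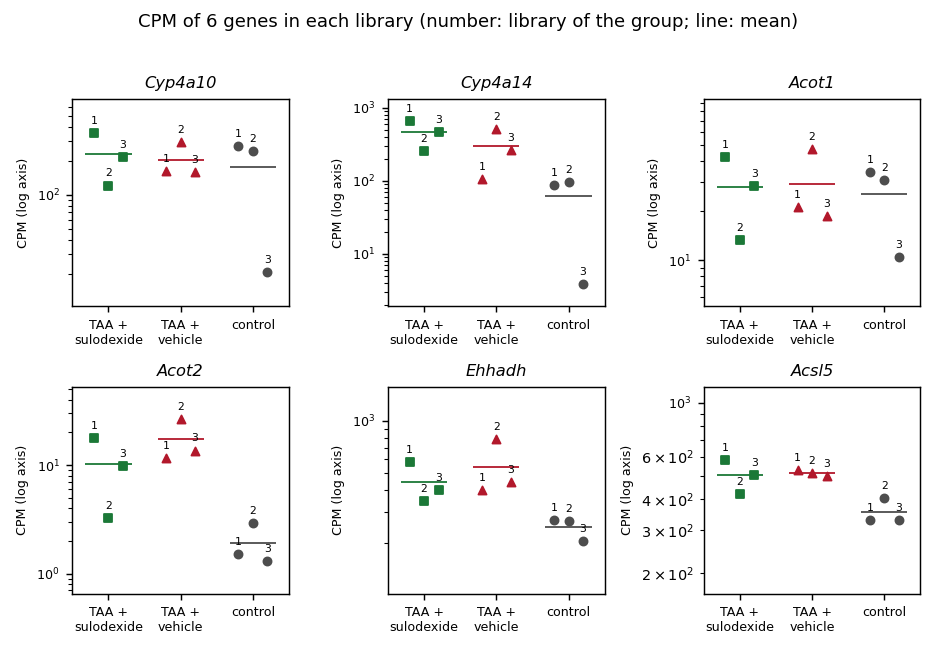
CPM on a log axis in each library for Cyp4a10, Cyp4a14, Acot1, Acot2, Ehhadh and Acsl5; points are numbered by library within the group and lines are group means. Control library 3 and sulodexide library 2 are the lowest and vehicle library 2 and sulodexide library 1 the highest of their groups for Cyp4a10, Cyp4a14, Acot1 and Acot2.

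The ketone body member Bdh1 (chr16:31422280-31458901), which interconverts acetoacetate and 3-hydroxybutyrate, had 225, 185 and 225 CPM in sulodexide libraries, 129, 207 and 203 in vehicle libraries and 186, 200.3 and 186 in control libraries. The groups overlapped and no comparison passed the test (log2 -0.09 ± 0.17 SE, edgeR adjusted p = 0.704 for vehicle against control, log2 0.23 ± 0.17 SE, edgeR adjusted p = 0.485 for sulodexide against vehicle). Its exons overlap the antisense gene Gm15743 over 533 bases.

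Because Bdh1 is the single ketone body enzyme among the 36, other genes of ketone body metabolism were read beside it. Acat1, the mitochondrial thiolase that makes acetoacetyl-CoA, had 203, 189.9 and 196 CPM in sulodexide libraries, 179, 188 and 183 in vehicle libraries and 387, 396 and 342 in control libraries. All sulodexide and all vehicle libraries lay below every control. It fell in vehicle (log2 -1.03 ± 0.11 SE, edgeR adjusted p = 4.33e-05) and in sulodexide livers (log2 -0.93 ± 0.11 SE, edgeR adjusted p = 0.000219).

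The carriers and Oxct1 rose. The monocarboxylate carrier Slc16a1 had 83.6, 70.4 and 73.2 CPM in sulodexide libraries, 93.8, 96.1 and 78.1 in vehicle libraries and 29.7, 29.1 and 29.8 in control libraries, 3.02-fold higher in vehicle (log2 1.60 ± 0.12 SE, edgeR adjusted p = 6.79e-06) and 2.56-fold higher in sulodexide livers than in control (log2 1.36 ± 0.12 SE, edgeR adjusted p = 5.34e-05). Slc16a6, a hepatic exporter of ketone bodies in zebrafish, also rose in vehicle livers (log2 0.90, edgeR adjusted p = 0.0156), a call that did not hold with control library 1 left out (adjusted p = 0.0606) or with control library 2 left out. Oxct1, the transferase by which tissues other than liver burn ketone bodies, had 5.63, 7.31 and 5.92 CPM in sulodexide libraries, 11.5, 6.69 and 11.8 in vehicle libraries and 5.23, 3.53 and 4.08 in control libraries and rose in vehicle livers (log2 1.22 ± 0.25 SE, edgeR adjusted p = 0.0029). Aacs, which returns acetoacetate to lipid synthesis in the cytosol, fell (log2 -0.97, edgeR adjusted p = 0.011; 0.0738 with library totals). Bdh2 was not called (log2 -0.58, edgeR adjusted p = 0.0556), but it was close to the threshold and was called lower with no filter on low counts (adjusted p = 0.0448), in the fit of the compared groups alone (0.0471) and without vehicle library 3 (log2 -0.86, adjusted p = 0.00926).

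**Figure D4:**
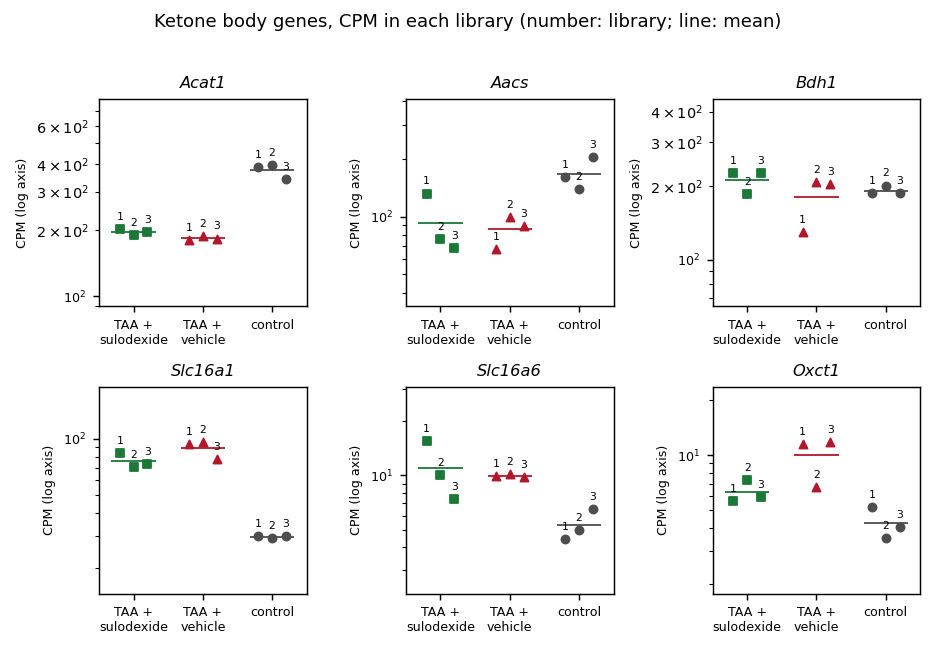
CPM on a log axis in each library for 6 ketone body genes; points are numbered by library within the group and lines are group means. Acat1 lies lower and Slc16a1 higher in the 3 vehicle libraries than in the 3 control libraries, and Bdh1 overlaps between all groups.

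Between sulodexide and vehicle livers, 0 of the 36 genes rose and 1, Acsl3, fell by edgeR, where 1.39% of all tested genes rose and 3.41% fell. DESeq2 gave 0 and 1 as well, where it called 2.83% of all tested genes higher and 5.5% lower. At an unadjusted p below 0.05, 6 members were higher (Cpt1a, Acadm, Etfa, Etfdh, Hsd17b4 and Eci2) and 1 was lower, where 9.04% of all tested genes were higher. The log2 change was positive for 27 of 36 members and for 7110 of 13701 tested genes, and its median was 0.16 over the members and 0.02 over all tested genes. With library totals 20 of 36 were positive, the median of all tested genes was -0.12, and the members stood 0.15 above it under both scalings. Leaving out 1 library at a time, 23 to 29 members were positive. The members stood 0.06 above the median of all genes without vehicle library 1, 0.09 without sulodexide library 1 and 0.24 without sulodexide library 2.

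By compartment, 16 of the 18 mitochondrial genes had a positive log2 change (median 0.19) and 6 of the 9 peroxisomal genes (median 0.16), and none of either was called. The 13 genes encoded by mitochondrial DNA were positive in the same comparison (median 0.46), and 1 of them, mt-Cytb, passed the test (log2 0.68 ± 0.16 SE, edgeR adjusted p = 0.0385), a call lost when any 1 of these 6 libraries other than sulodexide library 1 was left out. The mt-Cytb call was also lost in the edgeR fit of the compared groups alone (adjusted p = 0.0556) and with limma on FPKM (adjusted p = 0.125). Of 18 hepatocyte markers 16 were positive and none was called (median 0.19). The part of these in the members' changes was not tested.

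In sulodexide livers against control, 8 members were lower and 3 higher, or 22.2% and 8.33%, where 11.4% of all tested genes were lower and 11.2% higher. Those lower were Acsl3, Slc25a20, Acadl, Acads, Etfa, Acaa1a, Acaa1b and Decr2, and those higher were Acsl5, Ehhadh and Acot2. The median log2 change was -0.09 over the members and 0.02 over all tested genes. It was 0.0062 over the members without sulodexide library 2 and -0.03 without control library 2. Relative to the median of all genes the members stood at -0.11 with all libraries. They stood at -0.02 without sulodexide library 2 and at -0.05 without control library 2. With library totals the median of all tested genes was 0.27, 5.53% of them were lower and 24.2% higher, and 3 members were lower and 5 higher. Acaa1a, Acaa1b and Decr2 were lower under both scalings, and Acsl3, Slc25a20, Acadl, Acads and Etfa only with TMM factors. This comparison shares its control libraries with that of vehicle against control, so the lists are not independent. With TMM factors, Acads, Acaa1a and Decr2 were called with each library left out in turn. Slc25a20 was lost without control library 1 or 2 or sulodexide library 2, Acadl without control library 2 or 3 or sulodexide library 2, and Acaa1b without control library 1 or 2 or sulodexide library 2. Etfa was lost without control library 2 or 3 or sulodexide library 1 or 2, Acsl5 without control library 1 or 3 or sulodexide library 1, and Acsl3 without control library 3. The adjusted p of these lost calls lay between 0.0541 and 0.0999. Calls were gained by Acsl1 and by Cpt1a (both lower) without sulodexide library 1, by Crat (higher) without control library 1 and by Hadhb (higher) without sulodexide library 3, and DESeq2 called Acsl1 and Acadvl lower and Cyp4a14 higher. Acsl1, Cpt1a, Acadm, Etfdh and Hsd17b4 had fallen in vehicle livers and were not called here; the direct contrasts of sulodexide with vehicle for these 5 genes had edgeR adjusted p between 0.141 and 0.575. In all, 18 of the 36 genes were not called in any comparison. The share of all tested genes called in none was not computed, so this count has no background beside it.

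Per length of transcript, Acaa2 was the most abundant member in control livers with 535 ± 39.1 FPKM (SD, n = 3), and its lowest control library, 497 FPKM, was above the highest of the next gene, Acaa1b, with 329 FPKM. Hsd17b4 (115 ± 9.57), Cpt1a (99.7 ± 13.8), Etfb (98.5 ± 10.1), Etfa (97.7 ± 1.66) and Acsl5 (96.8 ± 11.4 FPKM) followed. All 3 control libraries were higher for Hsd17b4 than for Etfa, and the other pairs of these 5 genes overlapped. The lowest were Crat (2.06 ± 0.738), Hadhb (1.75 ± 0.216), Acot2 (0.749 ± 0.331) and Abcd2 (0.202 ± 0.116 FPKM). Hadhb was listed far below Hadha (28.3 ± 1.52 FPKM), its partner in the trifunctional protein; the part of its shared sequence in that value was not tested.

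**Figure D5:**
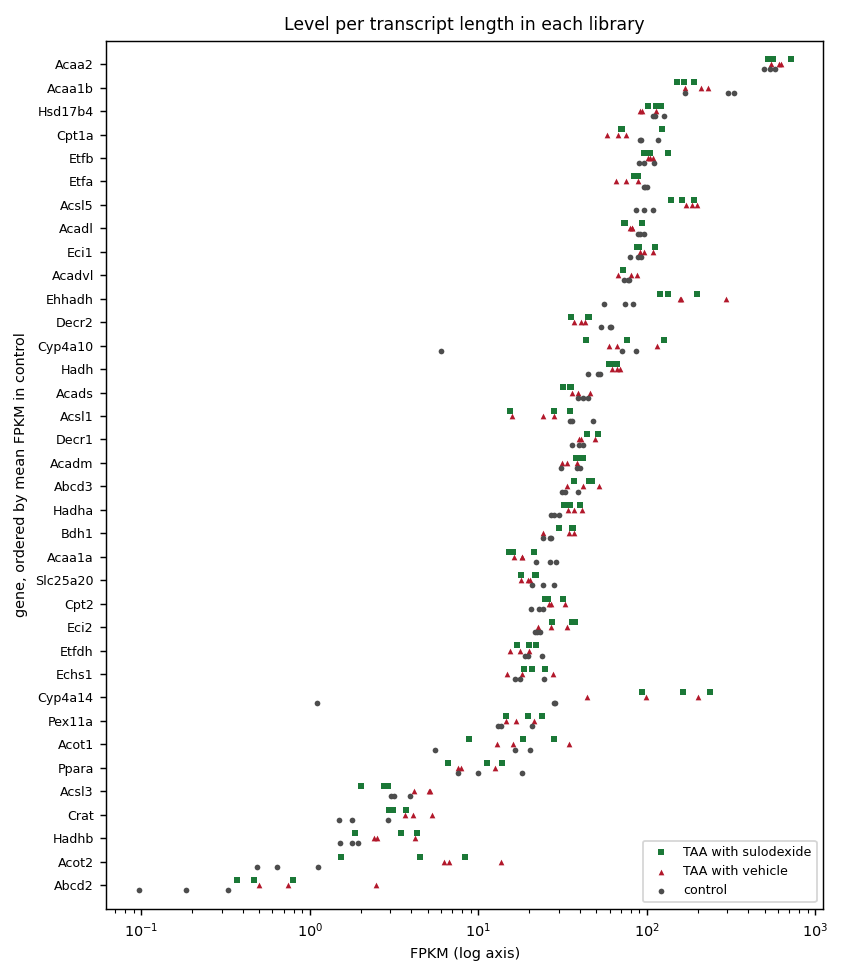
FPKM on a log axis of each of the 36 genes in the 9 libraries, ordered by the mean of the 3 control libraries. Acaa2 is highest at a control mean of 535 FPKM and Abcd2 lowest at 0.202 FPKM.

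Other genes of the pathway were read from lists. Of 36 further genes listed as peroxisomal and tested, 18 fell and 2 rose in vehicle livers, with a median log2 change of -0.48. Of all tested genes 20.4% fell and 23.1% rose. The 2 that rose were Acot6 and Pmp22. Pmp22 encodes a peripheral myelin protein and is not a peroxisomal gene, so it does not belong on this list. With library totals 5 fell and 8 rose, where 8.44% of all tested genes fell and 42% rose. The 4 with the smallest p were the sterol carrier and thiolase gene Scp2 (log2 -1.71, edgeR adjusted p = 3.3e-05), the coenzyme A diphosphatase Nudt7 (log2 -2.31, edgeR adjusted p = 9.06e-05), the membrane protein Pxmp2 (log2 -1.25, edgeR adjusted p = 0.00016) and the phytanoyl-CoA hydroxylase Phyh (log2 -1.20, edgeR adjusted p = 0.000401). In sulodexide against vehicle edgeR called 0 of these 36, where DESeq2 called Scp2, Nudt7 and Phyh among those named here (log2 0.54, 0.86 and 0.59, all higher).

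Of 28 other mitochondrial genes of acyl-CoA metabolism, 16 fell and 3 rose in vehicle livers (median -0.65), against 20.4% and 23.1% of all tested genes. Those that fell include Acadsb, Gcdh, Hibch, Hsd17b10, Ivd, Mcee, Mut, Pcca and Pccb, which act mainly in amino acid or propionate breakdown. The count is therefore not one of fatty acid oxidation alone. With library totals 10 fell and 6 rose, against 8.44% and 42%. The smallest p-values belonged to the medium-chain synthetases Acsm5 (log2 -1.42, edgeR adjusted p = 1.82e-05), Acsm1 (log2 -1.13, edgeR adjusted p = 9.25e-05) and Acsm3 (log2 -1.20, edgeR adjusted p = 9.25e-05) and to the propionyl-CoA carboxylase subunit Pccb (log2 -1.11, edgeR adjusted p = 4.89e-05). Hibch, a hydrolase of valine breakdown, rose with sulodexide against vehicle (log2 0.52 ± 0.12 SE, edgeR adjusted p = 0.0393), a call lost when any 1 of the 6 libraries was left out. By edgeR it was also lost with library totals (adjusted p = 0.119), with the compared groups alone (0.0793) and with replicate numbers as a block (0.0611). Limma on FPKM did not call it either (adjusted p = 0.116).

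Of 22 genes of fatty acid uptake, binding and release, 10 fell and 6 rose in vehicle livers (median -0.23), against 20.4% and 23.1% of all tested genes, and 6 fell and 10 rose with library totals, against 8.44% and 42%. Slc27a2, a very long chain acyl-CoA synthetase and transporter, had 775, 781 and 745 CPM in sulodexide libraries, 451, 529.9 and 513 in vehicle libraries and 1368, 1365 and 1403 in control libraries. It fell 2.77-fold in vehicle livers (log2 -1.47 ± 0.12 SE, edgeR adjusted p = 7.66e-06) and was higher with sulodexide than with vehicle (log2 0.62 ± 0.11 SE, edgeR adjusted p = 0.0156), with no overlap between groups; the second call was lost without vehicle library 1 or 3 or sulodexide library 2 (adjusted p between 0.0527 and 0.0675). The lipases Mgll (log2 -1.24, edgeR adjusted p = 4.49e-05) and Lipc (log2 -1.35, edgeR adjusted p = 7.89e-05) and the binding protein Fabp2 (log2 -1.50, edgeR adjusted p = 0.000169) also fell. The uptake receptor Cd36 rose (log2 2.95, edgeR adjusted p = 0.000618), a change chosen for mention after its value was seen.

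Of 31 other PPAR alpha target genes tested, 11 fell and 9 rose in vehicle livers (median -0.27), against 20.4% and 23.1% of all tested genes. With library totals 8 fell and 10 rose, against 8.44% and 42%, so the share that rose lay above the background under one scaling and below it under the other. Pdk4, a mitochondrial kinase that inhibits pyruvate dehydrogenase, had 42.2, 12.6 and 14.9 CPM in sulodexide libraries, 45.4, 102 and 70.0 in vehicle libraries and 4.36, 3.27 and 3.59 in control libraries and rose 19.2-fold in vehicle livers (log2 4.26 ± 0.56 SE, edgeR adjusted p = 0.000582). All sulodexide libraries were below all vehicle libraries; the difference did not pass the edgeR test (log2 -1.64 ± 0.48 SE, edgeR adjusted p = 0.101), and did with DESeq2 (log2 -1.65, adjusted p = 0.00164), with limma on FPKM (log2 -1.90, adjusted p = 0.0298) and by edgeR without sulodexide library 1 (log2 -2.39, adjusted p = 0.00926). Fgf21, a hepatic hormone of fasting, had 3.91, 1.10 and 2.70 CPM in sulodexide libraries, 4.25, 4.24 and 3.37 in vehicle libraries and 0.80, 0.689 and 0.163 in control libraries and rose in vehicle livers (log2 2.81 ± 0.53 SE, edgeR adjusted p = 0.00172). The lipid droplet coat gene Plin2 rose (log2 1.90, edgeR adjusted p = 0.000276; chosen after its value was seen).

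The 4 called targets with the smallest p were Cyp2j5 (log2 -1.99, edgeR adjusted p = 3.1e-06), Cyp4f15 (log2 -1.58, edgeR adjusted p = 3.98e-05), Cyp4f14 (log2 -1.38, edgeR adjusted p = 0.000174) and the lectin Mbl1 (log2 -1.29, edgeR adjusted p = 0.000208), all lower in vehicle livers. Cyp2j5, an epoxygenase of arachidonic acid, was higher with sulodexide than with vehicle (log2 0.75 ± 0.13 SE, edgeR adjusted p = 0.0127), a call lost without vehicle library 3 or sulodexide library 2 (adjusted p = 0.0579 and 0.0516).

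Of 33 regulators tested, 11 fell and 6 rose in vehicle livers (median -0.06), against 20.4% and 23.1% of all tested genes, and 5 fell and 11 rose with library totals, against 8.44% and 42%. The share of regulators that rose was below the background under both scalings. The receptor gene Ppard, a relative of Ppara, had 12.1, 12.7 and 7.63 CPM in sulodexide libraries, 19.9, 20.5 and 21.4 in vehicle libraries and 8.87, 6.89 and 7.59 in control libraries, higher in vehicle livers than in control (log2 1.40 ± 0.19 SE, edgeR adjusted p = 0.000245) and lower with sulodexide than with vehicle (log2 -0.92 ± 0.19 SE, edgeR adjusted p = 0.0212). Foxa2, a hepatocyte transcription factor of the fasting response, had 35.0, 26.9 and 23.8 CPM in sulodexide libraries, 17.1, 14.7 and 14.6 in vehicle libraries and 25.1, 26.5 and 28.9 in control libraries, lower in vehicle livers than in control (log2 -0.79 ± 0.16 SE, edgeR adjusted p = 0.00214) and higher with sulodexide than with vehicle (log2 0.88 ± 0.16 SE, edgeR adjusted p = 0.0137); its fall was not called with library totals (adjusted p = 0.072). The sulodexide calls of Ppard and Foxa2 were lost without vehicle library 3, and that of Ppard without vehicle library 1 too. Nfe2l2, which encodes NRF2, rose (log2 1.46, edgeR adjusted p = 4.25e-05), and the FGF receptor Fgfr4 (log2 -0.95, edgeR adjusted p = 0.000285) and the nuclear receptor Esrrg (log2 -4.09, edgeR adjusted p = 0.000286) fell.

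Markers of liver cell types were read in the same groups. Of all tested genes 20.4% fell and 23.1% rose in vehicle livers, and 8.44% and 42% with library totals. Of 18 hepatocyte markers 7 fell and 0 rose in vehicle livers by edgeR (median -0.41), where with library totals 4 fell and 4 rose, and their summed level was 129551 to 149489.9 CPM in sulodexide, 113949.9 to 137762 in vehicle and 133748 to 166033 in control libraries. Of 14 stellate cell markers 11 rose, with sums of 399 to 413 CPM in sulodexide, 602 to 953 in vehicle and 260.0 to 294 in control libraries. Of 10 cholangiocyte markers 10 rose, with sums of 45.0 to 117 CPM in sulodexide, 221 to 545 in vehicle and 35.1 to 50.9 in control libraries. Of 14 macrophage markers 9 rose (359.9 to 783 CPM in sulodexide, 398 to 823 in vehicle and 250.4 to 276 in control libraries), and of 11 white blood cell markers 8 rose (23.7 to 38.1 CPM in sulodexide, 25.6 to 85.6 in vehicle and 11.6 to 17.4 in control libraries). Of 10 sinusoidal endothelial markers 2 fell (364 to 508 CPM in sulodexide, 304 to 403 in vehicle and 382 to 476 in control libraries). With library totals 0 of these endothelial markers fell and 1 rose, while 13 stellate cell and 10 cholangiocyte markers rose. Of 8 adipocyte markers 2 were tested and 1 rose (17.7 to 24.7 CPM in sulodexide, 22.2 to 35.9 in vehicle and 14.5 to 19.2 in control libraries), and Lep had 0 counts in every library. With sulodexide against vehicle, 8 of 10 cholangiocyte, 6 of 14 stellate cell and 1 of 14 macrophage markers fell, where 3.41% of all tested genes fell. Of the 13 mitochondrially encoded genes 12 fell in vehicle livers (median -1.53), and 12 with library totals. The part of these shifts in the members' changes was not tested.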

How the data were processed

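Total RNA from mouse liver was made into mRNA libraries, per the labels' protocols. The authors deposited counts per gene and FPKM values for 9 libraries. The tools named in the submitters' processing notes are HISAT2 2.0.4 and StringTie 1.3.0, with no role given, and the builds named there are mm10 and GRCm38.p4. Which program counted reads, and whether it used strand, is not given in the sources used here, so reads from overlapping genes on opposite strands may not be told apart. The deposited counts were used for every test, and the deposited FPKM values for levels between genes and for 1 alternative. Groups came from the treatment labels, 3 libraries each.

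The software was R 4.3.3, edgeR 4.0.16, DESeq2 1.42.0 and limma 3.58.1. Genes kept by filterByExpr (minimum count 10) numbered 13701 of 34745. All 9 libraries were scaled with TMM factors and entered 1 edgeR model with group means, whose contrasts went through its robust quasi-likelihood F-test with Benjamini-Hochberg adjustment over all tested genes. The standard error is the size of the log2 change divided by the square root of F. The procedure was checked on simulated data with known changes. Alternatives were RLE scaling, library totals, DESeq2, 2 other count filters, fits of the compared groups alone, limma on log2(FPKM + 0.1), a replicate block, and leaving out each library in turn.

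The 36 members and all gene lists were chosen with earlier results of these data known. Every member is named or counted. Full statistics are given for called members with the 2 smallest p-values of their role in vehicle against control or in sulodexide against vehicle, and for Ppara, Cpt1a, Acadm, Ehhadh, Cyp4a10, Cyp4a14 and Bdh1; of the other lists, the 4 called genes with the smallest p in vehicle against control and up to 3 in sulodexide against vehicle are named, with Fgf21 and Pdk4. Some genes of these lists are not reported here. Other genes named with values are there to complete a role or were chosen after their values were seen. Coordinates are those of the deposited table. Upstream windows came from RefSeq (GRCm38.p6), and transcript overlaps and coding sequences from GENCODE M21.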

Additional observations from a re-analysis of the deposited data

How the results depend on the processing

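With library totals in place of TMM factors, 8 members rose and 5 fell in vehicle against control, and 5 were higher and 3 lower in sulodexide against control; limma on FPKM, which uses library totals too, gave 9 and 5, and 6 and 2. Of all tested genes 42% rose and 8.44% fell with library totals in the first comparison, and 24.2% and 5.53% in the second. Limma on FPKM gave 41.9% and 8.46%, and 23.3% and 5.55%. With no filter on low counts 1 member was higher in sulodexide against control, and the cause was not tested. Leaving out 1 library at a time gave 3 to 5 members higher and 10 to 13 lower in vehicle against control, 0 lower in sulodexide against vehicle, and 0 to 3 higher and 4 to 9 lower in sulodexide against control. Of all tested genes these fits called 18.8% to 22% higher and 16.2% to 18.7% lower in vehicle against control. In sulodexide against vehicle 0.657% to 4.72% were lower. In sulodexide against control 6.96% to 10.5% were higher and 7.69% to 11% lower. In vehicle against control, Acsl1, Cpt1a, Etfa, Acaa1a and Decr2 fell and Acsl5, Ehhadh and Acot2 rose in each of the 14 alternatives run. No called member changed direction in any alternative run. The replicate numbers did not pair the libraries, since correlations of same-numbered deviations ran from -0.07 to 0.14 and 3 of 9 same-numbered pairs correlated best with their own number; with the numbers as a block, 5 rose and 13 fell in vehicle against control, 0 and 1 in sulodexide against vehicle, and 2 and 8 in sulodexide against control, where Ehhadh (adjusted p = 0.0618) and Acot2 (0.079) were lost and Abcd2 was gained (0.0359). With the block Acadvl in vehicle against control (0.0395) and, beside the members, Bdh2 (0.0197) were called lower. Of all tested genes the block fit called 22.1% higher and 20% lower in vehicle against control. It called 1.45% and 3.28% in sulodexide against vehicle, and 10.6% and 11.2% in sulodexide against control. For the uncalled Abcd3, Acot1, Acsl3, Bdh1, Cpt2, Cyp4a10, Eci2, Hadh and Hadha, leaving out 1 library could turn the sign of the log2 change in vehicle against control.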

Other observations

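The 250 bases before and 50 bases after the start site were available for 29 of the 36 members, in 32 windows. They were searched on both strands for the direct repeat bound by PPAR alpha with its partner RXR, spelled AGGNCANAGGNCA, and for its stricter form AGGTCANAGGTCA, which lies within the first. Neither was in any of the 32 member windows, where 0.381% and 0.0396% of 32851 windows of all genes held them. With shares this low, no match in 32 windows tells little, and it says only that these letters are not in these windows. Cyp4a10 and Cyp4a14 were among the members with no window. Some windows lay far from the annotated gene start, that of Eci2 by 32952 bases. The 250 bases upstream held a median of 12 CpG in the 29 members and of 6 over 27025 gene symbols. The 3 members that rose in vehicle livers and had a window held a median of 7 CpG, the 11 that fell 12, and the 15 not called 13. The range within the members was wide, with 34 in Abcd3 and 2 in Acaa1b.

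Other genes whose transcripts resemble a member were read for comparison. Cyp4a31, which shares sequence with Cyp4a10, had 27.7, 14.7 and 19.8 CPM in sulodexide libraries, 15.0, 27.7 and 17.8 in vehicle libraries and 9.52, 9.38 and 3.76 in control libraries, and it rose in vehicle livers (log2 1.41 ± 0.37 SE, edgeR adjusted p = 0.013). Cyp4a32, another such gene, was not called (log2 -0.06, edgeR adjusted p = 0.876). For Cyp4a31, vehicle library 2 and sulodexide library 1 were the highest and control library 3 the lowest of their groups. Acot4, a peroxisomal thioesterase of the Acot1 and Acot2 family, was not called (log2 -0.50, edgeR adjusted p = 0.278 for vehicle against control). In sulodexide against control it was close to the threshold (log2 -1.07, edgeR adjusted p = 0.0574), with sulodexide libraries all below the controls under TMM scaling. There it was called lower by DESeq2 (adjusted p = 0.0129), and by edgeR with the replicate block (0.0355) and without sulodexide library 1 (0.00784).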
